A study of Homo sapiens with 12 samples.

Results

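EDN1, SNAI1, CCN1, CCN2, CD9, CCNG2 and F3 are 7 genes that were followed here in HepG2 cells carrying or lacking ATP7B, a copper-exporting ATPase of liver. They were selected by symbol from the 47634 gene IDs in the count files. Several had been picked because their copper response differed between the lines, so the copper effects below describe the members and are not tested. HepG2 cells come from a human liver cancer. Wild type cells and ATP7B KO cells were either left untreated or incubated with copper (Cu) for 24 h, which gave 4 groups of 3 libraries. The labels give no copper dose, name 1 KO line without its clonal origin, and call the 3 libraries of a group biological replicates without saying whether they came from separate cultures. The p-values below therefore measure the spread between these libraries.

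EDN1 encodes the precursor of endothelin-1, a peptide that is cut by endothelin-converting enzymes and acts through the receptors EDNRA and EDNRB to contract vessels and activate stellate cells in liver. SNAI1 encodes Snail, a zinc-finger repressor of epithelial junction genes. CCN1 (CYR61) and CCN2 (CTGF) are matricellular proteins, secreted into the matrix where they bind integrins and growth factors, and are classic targets of YAP and TEAD and of the SRF and MRTF pathway. CD9 is a tetraspanin that organises integrins and other partners in the membrane. F3 is tissue factor, the receptor that starts the clotting cascade. CCNG2 is cyclin G2, an atypical cyclin linked to cell cycle arrest and FOXO factors, and despite its symbol it is not a CCN matricellular protein.

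Promoter windows from RefSeq (GRCh38.p14, 250 bases before to 50 after the start site) were found for 5 of the 7 members, and 3 are shown: CCN2 and EDN1 for repeated cores of TEAD and SMAD, whose pathway genes are counted below, and F3 for a repeated AP-1 core. Capitals mark the core of TEAD (GGAATG), AP-1 (TGANTCA), FOXO (GTAAACA) or SMAD (GTCTG) on either strand, written 5′ to 3′ along each gene. The windows are EDN1 at chr6:12290111-12290410 (plus strand), CCN2 at chr6:131951323-131951622 (minus strand) and F3 at chr1:94541710-94542009 (minus strand).
EDN1: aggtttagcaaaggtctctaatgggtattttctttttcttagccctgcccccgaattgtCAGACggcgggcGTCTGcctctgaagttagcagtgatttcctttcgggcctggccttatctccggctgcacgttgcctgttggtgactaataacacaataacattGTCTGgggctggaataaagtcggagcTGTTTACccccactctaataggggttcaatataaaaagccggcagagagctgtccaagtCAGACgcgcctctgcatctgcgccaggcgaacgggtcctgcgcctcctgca
CCN2: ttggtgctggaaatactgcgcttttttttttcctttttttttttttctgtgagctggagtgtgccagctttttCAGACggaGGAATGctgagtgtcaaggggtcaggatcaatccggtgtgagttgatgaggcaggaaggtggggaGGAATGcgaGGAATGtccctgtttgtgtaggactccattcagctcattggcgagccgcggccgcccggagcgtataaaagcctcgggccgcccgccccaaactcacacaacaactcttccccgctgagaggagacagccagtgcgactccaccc
F3: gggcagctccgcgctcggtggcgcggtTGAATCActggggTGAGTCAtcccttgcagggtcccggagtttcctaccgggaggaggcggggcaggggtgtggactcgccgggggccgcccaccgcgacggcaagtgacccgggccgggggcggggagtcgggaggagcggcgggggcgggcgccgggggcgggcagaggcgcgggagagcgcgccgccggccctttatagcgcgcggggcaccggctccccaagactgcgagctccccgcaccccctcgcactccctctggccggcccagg
The CCN2 window holds GGAATG 3 times, at -169, -104 and -95 from the start site, a repeat found in 0.128% of 35116 windows, while 14% hold it at least once. The F3 window holds TGANTCA 2 times, at -223 and -210 (0.515% of windows hold 2 or more, 7.71% at least 1). The EDN1 window holds GTAAACA once, at -60, reading along the other strand (3.42% of windows), and GTCTG 4 times (0.57% hold 4 or more, 45.3% at least 1). In all, 10 motifs were searched in the 5 windows. Of those not marked, the metal response element core (TGCNCNC) was in EDN1, CD9 and F3, and in 55.9% of all windows. The EGR site was in CD9 and F3 (5.77% of windows), and the hypoxia response element (ACGTG) in EDN1 and CCNG2 (21.4%). The heat shock element, CArG box and E-box were in none of the 5. The share for each repeat was taken at the number found. The small shares therefore describe a choice made on these windows. These matches describe letters and are not shown to be bound in these cells.

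Library totals ran from 976658 to 3829151 counts, and levels are given as CPM, the count over the library's total on the usual common scale. A level of 3 counts is between 0.783 and 3.07 CPM, and a gene at 0 could lie up to that level in its library. There were 3 libraries that stood apart from the rest: replicate 1 of wild type copper and replicates 1 and 2 of ATP7B KO untreated. They scored 23.9, 111.4 and 120.4 on a first principal component with 44.2% of the variance, and the other 9 libraries scored below 0. These 3 also had the lowest totals (1873703, 1443372 and 976658 counts, against 2295050 or more in the others), and the part of depth in the results was not tested. By a chi-square of gene counts per degree of freedom, untreated ATP7B KO replicates 1 and 2 were at 6.11 from each other. Replicate 3 was at 52.2 and 44 from them, so it was the odd library within its own group. Which of them stands for that group was not tested. The mitochondrial share of counts was 2.97% to 3.81% in wild type untreated, 6.58% to 8.59% in wild type copper, 5.82% to 8.85% in ATP7B KO untreated and 8.34% to 9.46% in ATP7B KO copper libraries. This share moved with the wild type copper contrast and also separated the untreated lines without overlap. Its part was not tested either. A log2 fold change whose call ended or that moved over 1.5 times without the 3 libraries that stood apart is also given without them. In that fit ATP7B KO untreated replicate 3 is alone and is assumed to vary like the other groups. ATP7B itself ran from 12.4 to 13.1 CPM in the wild type and from 2.05 to 11.6 CPM in the ATP7B KO libraries without copper. With copper it ran from 3.87 to 5.34 CPM in wild type and from 3.92 to 6.77 CPM in ATP7B KO libraries. A 3′ tag checks nothing where it lies outside the edited part. As a check of the cell label, 10 of 10 hepatocyte markers were counted in every group. Their sum ran from 27562 to 27957 CPM in wild type untreated, from 12064 to 13478 in wild type copper, from 10231 to 13958 in ATP7B KO untreated and from 4952 to 5053 in ATP7B KO copper libraries. Of the endothelial markers, KDR and TEK were at 0 in all 12 libraries and the summed level of the 5 with an ID ran from 0 to 10.2 CPM, the highest in an ATP7B KO untreated library. The 7 stellate cell and fibroblast markers summed to 18.7 to 24.3 CPM in wild type untreated, 14.3 to 44.3 in wild type copper, 5.54 to 37.9 in ATP7B KO untreated and 12.1 to 62.5 in ATP7B KO copper libraries. The 6 macrophage and leukocyte markers summed to 1348 to 1469, 288.2 to 845.1, 209.2 to 428.4 and 185.9 to 225.1 CPM in the same order, most of it from LYZ (mean 1392, 560.4, 274.6 and 199.3 CPM), while PTPRC had 1 count in all. The part of these markers in the results was not tested. Fewer cells of a type and less RNA per cell cannot be told apart in such bulk libraries.

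With copper, 6 of the 7 members were higher in all 3 ATP7B KO libraries than in any untreated ATP7B KO library, a separation in that direction seen for 19.1% of the 11051 genes past the low-count filter. In wild type cells 4 members (EDN1, CCN2, CD9 and CCNG2) were lower in all copper libraries than in any untreated library, as were 27.1% of tested genes. SNAI1 was higher there without overlap, as were 21.3% of tested genes. The rule used these contrasts, so the counts describe the choice. F3, with 73 counts in all, did not pass the filter, so that 6 of the 7 members have fitted values. The effect of copper on the log2 scale differed in sign between the lines for 5 of these 6 (all but SNAI1), with CCN1 at -0.01 in wild type cells. Without the 3 libraries that stood apart CCN1 was at 0.55 there, and 4 of the 6 differed in sign. Among tested genes 44.6% had effects of opposite sign in the fit of all 12 libraries.

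**Figure D1:**
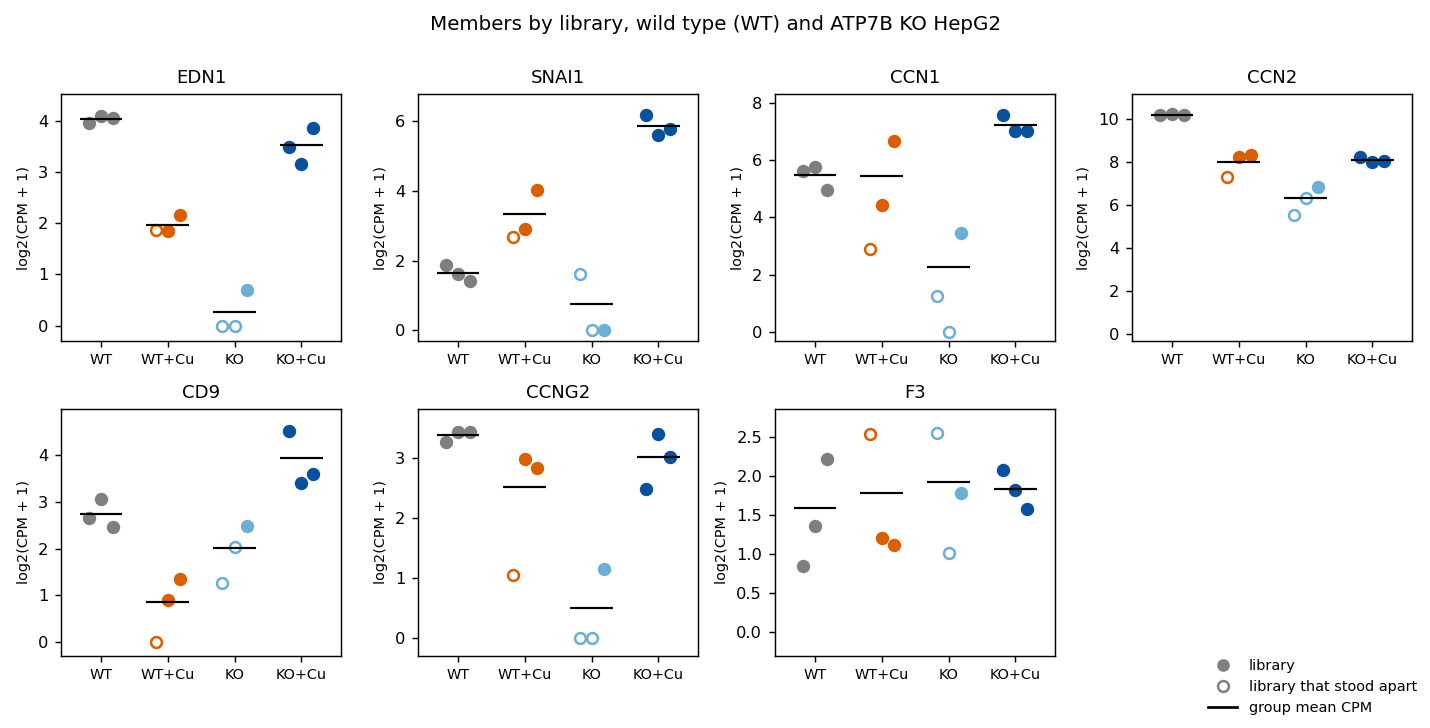
CPM of each member on the log2(CPM + 1) scale in the 12 libraries, by group (WT, wild type; KO, ATP7B KO; +Cu, copper), with open circles for the 3 libraries that stood apart and a black line at the group mean CPM. EDN1, SNAI1, CCN1, CCN2 and CCNG2 have their lowest group mean in untreated ATP7B KO cells and CD9 in wild type copper cells, these 6 are higher in all 3 ATP7B KO copper libraries than in untreated ATP7B KO ones, and F3 overlaps in all 4 groups.

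EDN1, the secreted ligand, was counted at 14.8, 16.2 and 15.7 CPM in the wild type libraries without copper (replicates 1, 2 and 3, the order used throughout) and at 2.67, 2.61 and 3.49 CPM with it. The ATP7B KO libraries held 0, 0 and 0.610 CPM without copper and 10.3, 7.95 and 13.5 CPM with it. The 4 groups did not overlap, in the order wild type untreated, ATP7B KO copper, wild type copper and ATP7B KO untreated. The fitted log2 fold change of EDN1 with copper was -2.36 ± 0.35 (SE) in wild type cells. Untreated ATP7B KO cells held 2 counts against 82 with copper, both from replicate 3. The ratio of pooled CPM was 30.3 (exact 95% counting interval 8.13 to 254.4), and the fitted value is no bound at such counts. Between the lines, pooled EDN1 in ATP7B KO was 0.0226 times wild type untreated (0.00271 to 0.0828) and 3.59 times wild type in copper (2.18 to 6.18).

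SNAI1, the epithelial repressor, measured 2.64, 2.09 and 1.68 CPM in untreated wild type libraries, against 5.34, 6.54 and 15.1 CPM with copper. Its ATP7B KO values were 2.08, 0 and 0 CPM without copper, against 70.9, 46.9 and 53.0 CPM with it. Every copper library was above every untreated library of its line, and the ATP7B KO copper libraries were above the 9 others. The untreated groups overlapped. SNAI1 was the 1 member that was higher with copper in both lines without overlap. Its log2 fold change in wild type cells was 2.10 ± 0.56 (SE), and 1.47 without wild type copper replicate 3, the highest of that group. In ATP7B KO cells 3 counts, all in untreated replicate 1, stood against 444 with copper, a ratio of pooled CPM of 109.4 (37.2 to 532.5). In copper, SNAI1 in ATP7B KO was 6.08 times wild type (4.67 to 8.03), by pooled CPM with counting error only.

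CCN1 was the most uneven member in wild type cells. It measured 48.2, 53.0 and 30.0 CPM without copper and 6.40, 20.5 and 99.9 CPM with it, so that the copper libraries lay on both sides of the untreated ones. Its fitted log2 fold change there was -0.01 ± 0.75 (SE). It was -1.68 without wild type copper replicate 3, 0.48 without replicate 1 and 0.55 ± 0.65 without the 3 libraries that stood apart, so its sign changed with the libraries used. ATP7B KO libraries held CCN1 at 1.39, 0 and 10.1 CPM without copper and 190.9, 129.4 and 128.2 CPM with it. These groups did not overlap, and the ATP7B KO copper libraries were the 3 highest of the 12. The log2 fold change was 5.02 ± 0.95 (SE), 4.07 ± 1.06 without the 3 libraries that stood apart, and 7.45 without ATP7B KO untreated replicate 3, which held most of that group's 35 counts.

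CCN2 had the highest level of the members (in 3′ tags, about 1 per transcript) and the most even between wild type untreated libraries, at 1152.5, 1181.7 and 1161.5 CPM. With copper the wild type libraries were at 157.4, 295.9 and 314.5 CPM. Its ATP7B KO libraries held 45.7, 78.8 and 113.2 CPM without copper and 300.6, 254.1 and 260.0 CPM with it. Wild type untreated libraries were above all others, ATP7B KO untreated libraries were below all others, and the copper groups overlapped. The log2 fold change with copper was -2.17 ± 0.31 (SE) in wild type cells and 1.90 ± 0.31 in ATP7B KO cells, and -1.87 ± 0.10 and 1.44 ± 0.13 without the libraries that stood apart. In copper, pooled CCN2 in ATP7B KO was 1.03 times wild type (0.968 to 1.10, counting error only). The fitted log2 difference there, which takes in the spread between libraries, was 0.06 ± 0.30 (SE). CCN2 made up 92.9% to 94.7% of the summed member CPM in the untreated wild type group and 49.9% to 55.2% in the ATP7B KO copper group. That sum ran from 1227 to 1272 CPM and from 460.1 to 602.6 CPM in these groups, and from 55.4 to 132.1 CPM in ATP7B KO untreated libraries.

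CD9, the tetraspanin, measured 5.27, 7.31 and 4.49 CPM in untreated wild type libraries, against 0, 0.871 and 1.55 CPM with copper. Its ATP7B KO values were 1.39, 3.07 and 4.58 CPM without copper, against 22.1, 9.63 and 11.2 CPM with it. The 3 ATP7B KO copper libraries were the highest of the 12. Untreated ATP7B KO libraries overlapped both wild type groups. The log2 fold change with copper was -2.62 ± 0.67 (SE) in wild type cells and 2.26 ± 0.54 in ATP7B KO cells, and -2.12 ± 0.59 and 1.83 ± 0.46 without the libraries that stood apart. In wild type it was -3.45 without copper replicate 3. The wild type value rests on 6 counts with copper against 64 without. In copper, pooled CD9 in ATP7B KO was 16.5 times wild type (7.35 to 45.9, counting error only). The fitted log2 difference there was 3.94 ± 0.63 (SE).

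CCNG2, the cyclin, measured 8.70, 9.92 and 9.83 CPM in untreated wild type libraries, against 1.07, 6.97 and 6.20 CPM with copper. The ATP7B KO libraries held 0, 0 and 1.22 CPM without copper and 4.63, 9.63 and 7.17 CPM with it. Copper libraries of the 2 lines overlapped, and the lowest wild type copper library was below the highest untreated ATP7B KO library. The log2 fold change with copper was -0.93 ± 0.51 (SE) in wild type cells and 3.46 ± 0.77 in ATP7B KO cells. Without the libraries that stood apart, which include the lowest wild type copper library, these were -0.47 ± 0.32 and 2.66 ± 0.61. The 4 counts of untreated ATP7B KO cells were all in replicate 3, so the ATP7B KO fold rests on them. With single libraries left out the fitted log2 value in ATP7B KO cells ran from 3.06 to 7.16. The ratio of pooled CPM with copper there was 9.98 (3.68 to 37.9, counting error only).

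F3, the tissue factor gene, measured 0.791, 1.57 and 3.65 CPM in wild type untreated, 4.80, 1.31 and 1.16 in wild type copper, 4.85, 1.02 and 2.44 in ATP7B KO untreated and 3.21, 2.51 and 1.99 in ATP7B KO copper libraries. All pairs of groups overlapped. With counting error only, the ratio of pooled CPM with copper was 1.13 (0.545 to 2.28) in wild type and 0.924 (0.455 to 1.91) in ATP7B KO cells. A change within these intervals was not detectable at this depth.

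**Figure D2:**
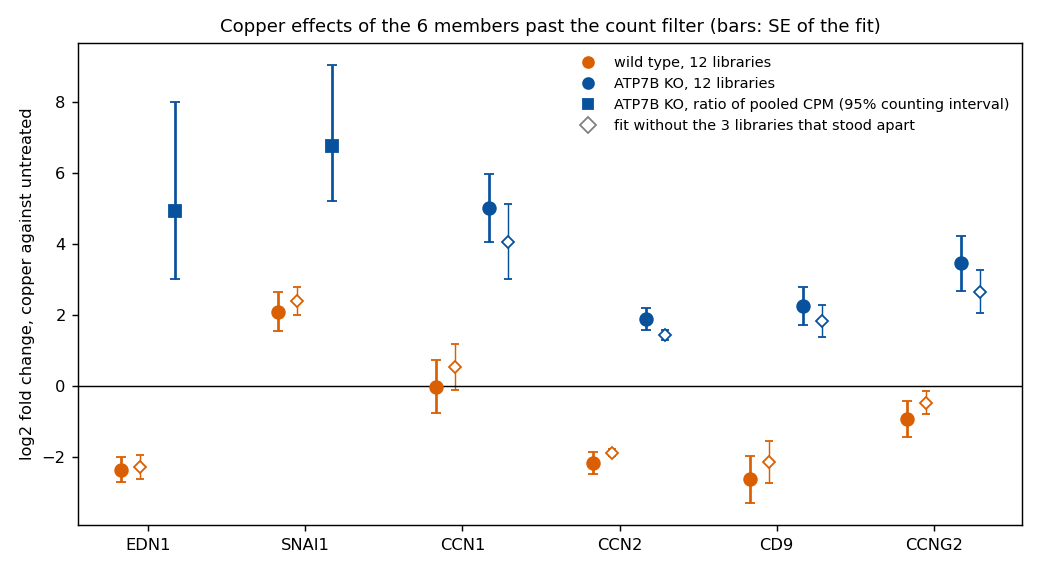
Copper effects of the 6 members past the low-count filter, as log2 fold change against untreated cells of the same line, in wild type (orange) and ATP7B KO (blue) cells, with SE bars. Squares give EDN1 and SNAI1 in ATP7B KO cells as the ratio of pooled CPM with its exact 95% counting interval, and open diamonds the fit without the libraries that stood apart. All ATP7B KO effects lie above 0, and in wild type cells SNAI1 lies above 0, CCN1 at 0 and the other 4 below.

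The difference of the copper effects (ATP7B KO minus wild type, log2) was 4.06 ± 0.44 (SE) for CCN2, 4.88 ± 0.86 for CD9, 4.39 ± 0.93 for CCNG2 and 5.03 ± 1.19 for CCN1, as a description of how they were chosen. Without the 3 libraries that stood apart it was 3.31 ± 0.17, 3.96 ± 0.75, 3.13 ± 0.69 and 3.53 ± 1.28. Without ATP7B KO untreated replicate 3 it was 8.02 for CCNG2 and 7.39 for CCN1. Without wild type copper replicate 3 it was 6.70 for CCN1 and 5.72 for CD9. Among untreated libraries, EDN1, CCN1, CCN2 and CCNG2 were lower in ATP7B KO than in wild type cells without overlap, as were 19.1% of tested genes. Among copper libraries, EDN1, SNAI1, CCN1 and CD9 were higher in ATP7B KO without overlap, as were 26.4% of tested genes. Averaged over both treatments, ATP7B KO minus wild type was -1.97 ± 0.22 for CCN2 and 1.51 ± 0.44 for CD9 on the log2 scale. These averages hold unlike parts. CCN2 was at -4.005 ± 0.34 untreated and 0.06 ± 0.30 in copper, and CD9 at -0.93 ± 0.56 untreated and 3.94 ± 0.63 in copper. The average was -1.83 ± 0.36 for EDN1 and -1.69 ± 0.48 for CCNG2, and -3.28 and -3.59 without ATP7B KO untreated replicate 3. For CCN1 it was -0.74 ± 0.59, within -2.00 to 0.08 as single libraries were left out, and for SNAI1 0.29 ± 0.76, within -1.50 to 0.86, and -1.73 ± 1.11 without the 3 libraries that stood apart.

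The pathways around the members were described with 12 lists of 177 genes outside the members, of which 126 were tested. Genes that passed an adjusted p of 0.05 (edgeR's quasi-likelihood test, adjusted over the 11051 tested genes, meant throughout) are said to have risen or fallen. Of the 126, 16 rose and 15 fell with copper in wild type cells (24.6%, against 14.9% of all tested genes), and 24 rose and 20 fell in ATP7B KO cells (34.9%, against 33.7%). The copper effect differed between the lines for 8 (6.35%, against 4.93%). In ATP7B KO against wild type averaged over treatments, 18 were higher and 27 lower (35.7%, against 29.2%). Medians of these 126 genes were -0.10, 0.14, 0.38 and -0.03 on the log2 scale in the same order, and those of all tested genes -0.03, 0.01, 0.02 and 0.02.

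**Figure D3:**
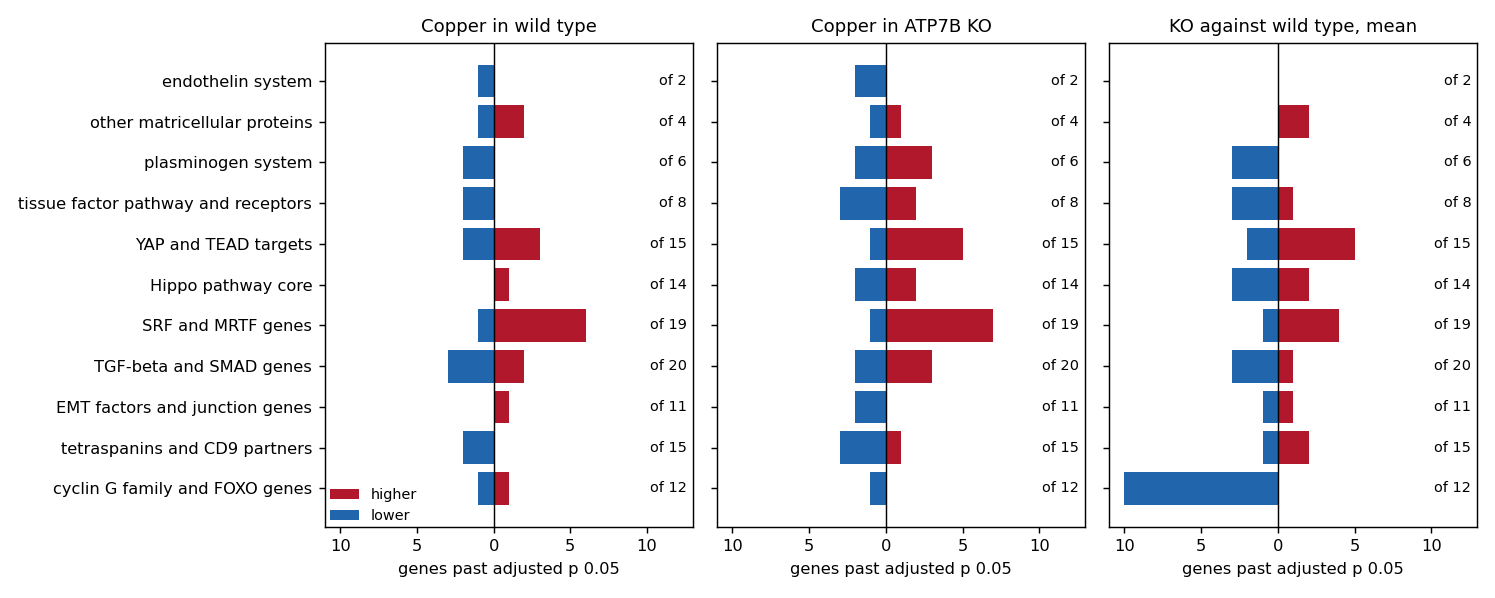
Number of genes outside the members that passed an adjusted p of 0.05 in each list, higher to the right and lower to the left, for copper in wild type, copper in ATP7B KO and ATP7B KO against wild type averaged over treatments, with the number tested at the right edge. The longest bar is the 10 of 12 cyclin G and FOXO genes that were lower in ATP7B KO cells, and the CCN family is not drawn because none of its 4 other genes was tested.

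In the endothelin system, 2 of the 8 other genes were tested, both converting enzymes. ECE1, which releases active endothelin-1, fell with copper in wild type cells (117.3 ± 7.19 to 57.9 ± 13.7 CPM, SD, n = 3; log2 fold change -0.99 ± 0.21 SE, edgeR adjusted p = 0.0082). It also fell in ATP7B KO cells (153.7 ± 31.8 to 66.6 ± 3.68 CPM; -1.09 ± 0.21, edgeR adjusted p = 0.0022). ECE2 fell in ATP7B KO cells (-0.96 ± 0.34, edgeR adjusted p = 0.043). That call ended without the 3 libraries that stood apart (adjusted p = 0.35) and with any 1 library left out other than replicate 1 of wild type copper or replicate 3 of ATP7B KO untreated. The receptors EDNRA and EDNRB had 0 counts in all 12 libraries.

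None of the 4 other CCN genes passed the low-count filter. Of 4 tested genes for other matricellular proteins, 2 rose and 1 fell with copper in wild type cells. That is 75%, against 14.9% of all tested genes. In ATP7B KO cells 1 rose and 1 fell (50%, against 33.7%). THBS1, the thrombospondin that can activate latent TGF-beta, measured 22.4, 19.1 and 20.2 CPM in untreated wild type libraries, against 93.9, 76.7 and 48.8 CPM with copper. It rose there by 1.85 ± 0.37 on the log2 scale (edgeR adjusted p = 0.0064) and was higher in ATP7B KO averaged over treatments (1.16 ± 0.26, adjusted p = 0.0053). With copper THBS1 also rose in ATP7B KO cells, by 1.04 ± 0.36 (edgeR adjusted p = 0.041), and by 2.15 without the 3 libraries that stood apart. That call ended (adjusted p 0.054 to 0.095) with relative log expression factors. It also ended when any 1 of 8 libraries was left out: the 3 untreated wild type, the 3 copper ATP7B KO, replicate 2 of wild type copper or replicate 1 of ATP7B KO untreated. SPP1, the matricellular protein osteopontin, fell in ATP7B KO cells (612 ± 54.0 to 346.6 ± 7.42 CPM; -0.71 ± 0.17, edgeR adjusted p = 0.0078). In wild type cells SPP1 rose from 355.1 ± 14.9 to 528 ± 44.5 CPM (0.60 ± 0.17, edgeR adjusted p = 0.033), a call that ended in 10 of 18 alternatives, 8 of them with 1 library left out (adjusted p 0.057 to 0.25). SMOC1, a calcium-binding matricellular protein, fell in wild type cells (-1.85 ± 0.57, edgeR adjusted p = 0.046), a call that ended with any 1 of 8 libraries left out (adjusted p 0.073 to 0.13).

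In the plasminogen system, which dissolves clots and opens matrix, 6 genes were tested. With copper 3 rose and 2 fell in ATP7B KO cells (83.3%, against 33.7% of all tested genes). The list median was 0.85 on the log2 scale, against 0.01 for all tested genes. Without the 3 libraries that stood apart 2 rose and 2 fell, and the list median was 0.22. With any 1 of replicates 1 and 2 of either ATP7B KO group left out, 1 rose. SERPINE2, a secreted inhibitor of urokinase and thrombin, rose in ATP7B KO cells from 31.2, 38.9 and 109.9 to 178.1, 186.7 and 176.8 CPM (1.70 ± 0.35, edgeR adjusted p = 0.0035). That fold change was 0.89 without the libraries that stood apart and 2.41 without ATP7B KO untreated replicate 3. SERPINF2, the plasmin inhibitor antiplasmin, fell in wild type (-1.97 ± 0.26, edgeR adjusted p = 0.00064) and ATP7B KO cells (-2.47 ± 0.28, adjusted p = 8.8e-05). CPB2, which protects fibrin from plasmin, fell likewise (-1.43 ± 0.26, edgeR adjusted p = 0.0040, and -1.74 ± 0.27, adjusted p = 0.00066). PLAUR, the urokinase receptor, rose in ATP7B KO cells (1.73 ± 0.53, edgeR adjusted p = 0.026), a call that ended with any 1 of replicates 1 and 2 of either ATP7B KO group left out (adjusted p 0.052 to 0.10). S100A10, a surface receptor for plasminogen with ANXA2, rose there from 35.9 ± 12.4 to 55.4 ± 6.68 CPM (SD, n = 3; 0.73 ± 0.25, edgeR adjusted p = 0.039). That call ended in 11 of 18 alternatives, among them the fit without the 3 libraries that stood apart (adjusted p = 0.059) and 9 that left out 1 library (0.055 to 0.13). PLAU, urokinase itself, had 11 counts in all. No tested gene of this list, SERPINE2 and PLAUR included, passed the test of the difference between the lines in the main fit.

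In the tissue factor pathway, 8 genes were tested. With copper 2 rose and 3 fell in ATP7B KO cells (62.5%, against 33.7% of all tested genes). F3 itself overlapped between groups. The risers were down to 1 with any 1 of 7 libraries left out: replicate 3 of wild type untreated, replicate 2 of wild type copper, replicates 1 and 2 of ATP7B KO untreated or the 3 copper ATP7B KO libraries. F7, the clotting factor that F3 binds, measured 41.6, 41.0 and 29.6 CPM in ATP7B KO libraries without copper and 3.92, 3.35 and 4.38 CPM with it. Wild type libraries held 34.8, 34.0 and 29.5 CPM without copper and 33.6, 24.8 and 24.8 CPM with it. F7 fell in ATP7B KO cells (-3.12 ± 0.28, edgeR adjusted p = 1.7e-05), was at -0.22 ± 0.23 in wild type cells (adjusted p = 0.56), and the difference passed the test (-2.91 ± 0.36, adjusted p = 0.0037). F5, a cofactor of the cascade, fell in ATP7B KO cells (-1.25 ± 0.18, edgeR adjusted p = 0.00043). F5 also fell in wild type cells (-0.65 ± 0.18, edgeR adjusted p = 0.029), a call that ended in 9 of 18 alternatives. Its difference between the lines did not pass (edgeR adjusted p = 0.13). F2RL1, the receptor PAR2 that is cut by the F3 and F7 complex, rose in ATP7B KO cells from 7.73 ± 1.11 to 23.0 ± 4.43 CPM (1.71 ± 0.36, edgeR adjusted p = 0.0041). In wild type cells F2RL1 was at 1.16 ± 0.365 and did not pass. The difference between the lines did not pass either (0.545 ± 0.519, edgeR adjusted p = 0.46). TFPI, the inhibitor of the pathway, was lower in ATP7B KO averaged over treatments (-1.65 ± 0.19, edgeR adjusted p = 9e-05). It averaged 1131 ± 57.2 CPM in wild type untreated and 295.2 ± 105 CPM in ATP7B KO untreated libraries.

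Among YAP and TEAD targets, the class CCN1 and CCN2 belong to, 15 genes were tested. With copper 5 rose and 1 fell in ATP7B KO cells (40%, against 33.7% of all tested genes). In wild type cells 3 rose and 2 fell (33.3%, against 14.9%). GADD45B, a stress-induced signalling protein, measured 30.6, 26.6 and 22.2 CPM in untreated wild type libraries, against 85.9, 120.7 and 149.5 CPM with copper. Its ATP7B KO values were 6.24, 2.05 and 8.85 CPM without copper, against 376.8, 325.3 and 277.9 CPM with it. The 4 groups were apart. GADD45B rose in wild type (2.19 ± 0.30, edgeR adjusted p = 0.00074) and in ATP7B KO cells (5.81 ± 0.37, adjusted p = 2.2e-06), more so in ATP7B KO (difference 3.62 ± 0.45, adjusted p = 0.0037, and 2.97 without the libraries that stood apart). ANKRD1, a nuclear and sarcomeric ankyrin repeat protein, rose from 104.1 ± 10.5 to 243.5 ± 16.7 CPM in wild type (1.25 ± 0.18, edgeR adjusted p = 0.0010). The rise in ATP7B KO cells was from 109.9 ± 21.4 to 716.9 ± 26.6 CPM (2.82 ± 0.19, edgeR adjusted p = 3.2e-06). Unlike CCN2, these targets rose with copper in wild type cells. IGFBP3, a growth factor binding protein, fell with copper in wild type cells (13.2 ± 0.951 to 2.05 ± 0.516 CPM; -2.63 ± 0.44, edgeR adjusted p = 0.0023) and had 3 counts in each ATP7B KO group. In the Hippo core, 1 of 14 tested genes rose with copper in wild type cells (7.14%, against 14.9% of all tested genes). In ATP7B KO cells 2 rose and 2 fell (28.6%, against 33.7%). In the fit without the 3 libraries that stood apart 4 rose and 2 fell in wild type, and 3 rose and 1 fell in ATP7B KO cells. STK4, an upstream kinase, rose in wild type (1.07 ± 0.17, edgeR adjusted p = 0.0020) and ATP7B KO cells (0.95 ± 0.17, adjusted p = 0.0017). VGLL4, which competes with YAP for TEAD, fell in ATP7B KO cells (-1.85 ± 0.44, edgeR adjusted p = 0.0073), but was at -0.26 without the libraries that stood apart (adjusted p = 0.25). YAP1, the Hippo effector, also fell there (-1.08 ± 0.37, edgeR adjusted p = 0.042), a call that ended in 12 of 18 alternatives (adjusted p 0.050 to 0.89), with a value of -0.04 without the libraries that stood apart. WWTR1 (TAZ), a partner of TEAD, was lower in ATP7B KO averaged over treatments (-1.16 ± 0.20, edgeR adjusted p = 0.0011).

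**Figure D4:**
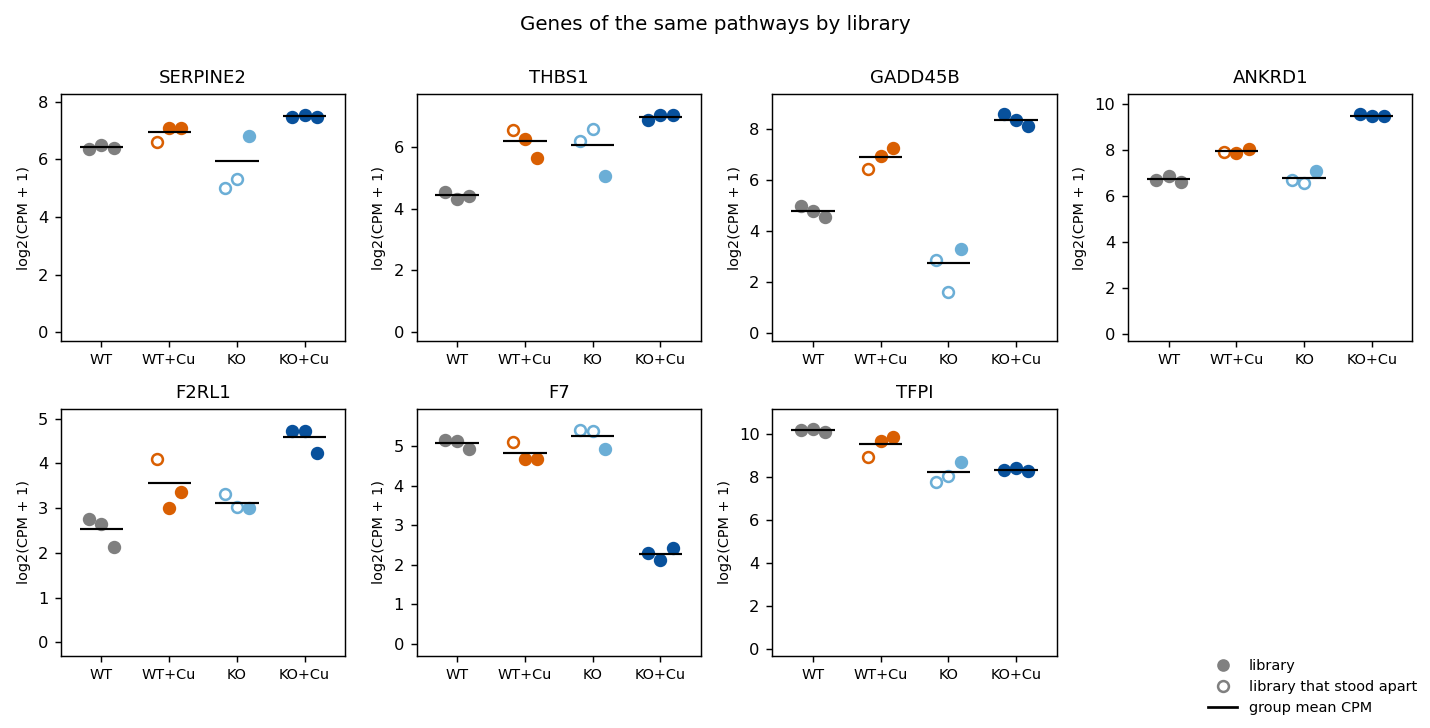
CPM of 7 genes from the same pathways on the log2(CPM + 1) scale in the 12 libraries, by group (WT, wild type; KO, ATP7B KO; +Cu, copper), with open circles for the libraries that stood apart and a black line at the group mean CPM. GADD45B and ANKRD1 are higher with copper in both lines, and F7 is low in ATP7B KO copper libraries.

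Among genes of the SRF and MRTF pathway, which links actin to transcription, 19 were tested. With copper 6 rose and 1 fell in wild type cells (36.8%, against 14.9% of all tested genes). In ATP7B KO cells 7 rose and 1 fell (42.1%, against 33.7%). Without the 3 libraries that stood apart, 9 rose and 2 fell in wild type and 11 rose and 2 fell in ATP7B KO cells. The wild type risers numbered 0 to 4 with any 1 of the 9 libraries outside the ATP7B KO untreated group left out. The ATP7B KO risers numbered 4 without replicate 1 or 2 of ATP7B KO copper. FHL2, a LIM-domain cofactor, rose in wild type cells (0.78 ± 0.21, edgeR adjusted p = 0.026), a call that ended in 6 of 18 alternatives. Its difference between the lines did not pass (edgeR adjusted p = 0.061). In ATP7B KO cells FHL2 rose from 19.2 ± 1.68 to 61.5 ± 4.11 CPM (1.79 ± 0.22, edgeR adjusted p = 0.00015). ZYX, a focal adhesion protein, rose by 1.94 ± 0.47 (edgeR adjusted p = 0.0081; 1.21 without the libraries that stood apart, 2.65 without ATP7B KO untreated replicate 3) and ACTN1, which crosslinks actin, by 1.24 ± 0.26 (adjusted p = 0.0039). ACTA2, smooth muscle actin, fell in these cells (-1.69 ± 0.34, edgeR adjusted p = 0.0031, and -2.27 without the libraries that stood apart). No gene of the SRF and MRTF list passed the test of the difference between the lines in the main fit.

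Among TGF-beta and SMAD genes, 2 of 20 tested rose and 3 fell in wild type cells (25%, against 14.9% of all tested genes). In ATP7B KO cells 3 rose and 2 fell (25%, against 33.7%). With single libraries left out these counts ran from 1 to 2 and 1 to 5 in wild type and from 1 to 6 and 0 to 4 in ATP7B KO cells, with most calls without replicate 3 of ATP7B KO untreated and fewest without replicate 2 of wild type copper or replicate 3 of ATP7B KO copper. The ligand TGFB1 rose in wild type from 14.6 ± 3.68 to 56.2 ± 17 CPM (1.97 ± 0.33, edgeR adjusted p = 0.0023). The target ID1 fell in wild type from 341.9 ± 20 to 60.3 ± 26.6 CPM (-2.48 ± 0.50, edgeR adjusted p = 0.0073). PMEPA1, a feedback inhibitor, rose in wild type cells (1.95 ± 0.52, edgeR adjusted p = 0.026), a call that ended with any 1 of 5 libraries left out. In ATP7B KO cells PMEPA1 rose by 3.29 ± 0.55 (edgeR adjusted p = 0.0011). That value was 4.81 without the libraries that stood apart, and 4.19 and 2.39 without replicates 1 and 3 of ATP7B KO untreated. No gene of this list passed the test of the difference between the lines in the main fit. For SNAI1, the genes of the epithelial-mesenchymal transition are the usual company. With copper 2 of 11 tested fell in ATP7B KO cells (18.2%, against 33.7% of all tested genes that passed in either direction). With single libraries left out 2 to 4 fell, and 4 without replicate 3 of ATP7B KO untreated. In wild type cells 1 passed (9.09%, against 14.9%). This was ZEB1, which rose (0.93 ± 0.25, edgeR adjusted p = 0.026), a call that ended in 5 of 18 alternatives. No gene of this list passed the test of the difference between the lines in the main fit. EPCAM, an epithelial adhesion molecule, measured 591, 649.2 and 226.1 CPM in ATP7B KO libraries without copper and 89.8, 96.7 and 108.7 CPM with it (-2.22 ± 0.35, edgeR adjusted p = 0.00080). Without the libraries that stood apart, which held the 2 highest EPCAM values, it was -1.02, with ATP7B KO untreated replicate 3 alone in its group. CDH2, N-cadherin, fell in these cells (-1.14 ± 0.26, edgeR adjusted p = 0.0060), and was at -0.40 without those libraries. CDH1, the E-cadherin gene that Snail represses, was at 85.7 ± 22.2 CPM untreated and 52.9 ± 4.82 CPM with copper in ATP7B KO cells (-0.58 ± 0.23, edgeR adjusted p = 0.072). VIM was at 4.58 ± 1.72 and 8.85 ± 10.1 CPM (adjusted p = 0.29) and SNAI2 had 8 counts in all.

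Of the tetraspanins and CD9 partners, 15 were tested. With copper 2 fell in wild type cells (13.3%, against 14.9% of all tested genes). In ATP7B KO cells 1 rose and 3 fell (26.7%, against 33.7%). With single libraries left out 0 to 5 fell in wild type, and 0 to 4 rose and 0 to 5 fell in ATP7B KO cells, again with most calls without replicate 3 of ATP7B KO untreated. TSPAN9 was lower (-1.15 ± 0.18, edgeR adjusted p = 0.00069) and TSPAN1 higher (1.60 ± 0.30, adjusted p = 0.0022; 0.98 without the libraries that stood apart) in ATP7B KO averaged over treatments. In the cyclin G and FOXO list, 10 of 12 tested genes were lower in ATP7B KO averaged over treatments (83.3%). Of all tested genes 29.2% passed, in either direction. The list median was -0.95, against 0.02 for all tested genes. Without the libraries that stood apart 11 of 13 were lower and 1 higher. The count was 6 with any 1 of 5 libraries left out: replicates 2 and 3 of wild type untreated, replicate 2 of wild type copper or replicates 1 and 3 of ATP7B KO copper. BCL6, a repressor induced by FOXO factors, averaged 88.1 ± 7.04 CPM in wild type and 31.9 ± 3.63 in ATP7B KO untreated libraries, and was at -1.68 ± 0.14 over both treatments (log2, edgeR adjusted p = 6.6e-06). KLF9, another such transcription factor, was lower as well (-2.73 ± 0.30, edgeR adjusted p = 5.5e-05). IGFBP1, a secreted FOXO target of hepatocytes, was at 5133 ± 339.4 CPM in wild type and 161 ± 186 CPM in ATP7B KO libraries without copper, and at 2474 ± 1225 and 472.3 ± 48.4 CPM with it. Averaged over treatments it was at -3.78 ± 0.48 (edgeR adjusted p = 0.00017), and at -4.54 without ATP7B KO untreated replicate 3. CCNG1, the closest relative of CCNG2, averaged 47.2 ± 3.42 CPM in untreated wild type libraries and 23.1 to 23.9 CPM on average in the other 3 groups.

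Over the 12 libraries, the tested gene most like each member in log2 CPM (Pearson's r) was WAC for EDN1 (0.939), TUBA4A for SNAI1 (0.972), SEC14L1 for CCN1 (0.985), BUB1 for CCN2 (0.953), ARL6IP1 for CD9 (0.953) and MKRN1 for CCNG2 (0.981). Without the 3 libraries that stood apart these were 0.937, 0.983, 0.946, 0.954, 0.927 and 0.956 over 9 libraries. The libraries of a group share its treatment and line, so these values describe likeness of pattern and carry no test. FHL2 of the SRF list was the next most like SNAI1 (0.967).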

How the data were processed

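HepG2 RNA (100 ng per sample) was made into QuantSeq 3′ libraries, per the labels' protocols, and sequenced single-end for 75 bp. STAR 2.3.0, HTSeq and hg19 are named in the submitters' processing notes; strand setting and annotation: not given in the sources used here. Each deposited file lists whole read counts by gene, which the authors had not normalized. Members were found by Ensembl ID and symbol (45776 of 47634 IDs had a symbol, with 99.5% of counts). CPM is the count over the library's total, with no length correction for these 3′ tags.

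edgeR 4.0.16 (R 4.3.3) was run with filterByExpr (11051 genes), TMM factors and a robust quasi-likelihood fit of 4 group means over all 12 libraries (biological coefficient of variation 29.1%), with Benjamini-Hochberg adjustment and a threshold of 0.05. SE is the log2 fold change over the square root of F. Alternatives used relative log expression factors, DESeq2 1.42.0, limma 3.58.1 (voom), no filter, a replicate block and left-out libraries. Counting intervals are exact at 95% and cover counting error only, since reads carry no molecular identifiers.

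Members and lists were chosen with earlier results of these data known. Up to 3 genes per list, comparison and direction, by smallest adjusted p, and a few preset genes were named. 1 of the preset genes is not reported here. A planned test of the members in ATP7B KO against wild type averaged over treatments was dropped after the values were seen: untreated ATP7B KO libraries are less precise, so that mean is not independent of the contrasts used in choosing. Symbols were not found for TXNIP and PECAM1.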

Additional observations from a re-analysis of the deposited data

Results flagged for a closer look

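The copper effect differed between the lines by the test of the difference itself (ATP7B KO minus wild type, log2, edgeR's quasi-likelihood test, adjusted over all tested genes) for 8 of the 126 list genes outside the members. For GADD45B it was 3.62 (adjusted p = 0.0037) and for F7 -2.91 (adjusted p = 0.0037), and these 2 calls held under all 18 alternatives run.

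The other 6 calls ended in 8 to 13 of the 18 alternatives. ANKRD1 was at 1.57 (adjusted p = 0.018) and SPP1 at -1.30 (adjusted p = 0.025). Each of these 2 calls ended with any 1 of 8 libraries left out: the 3 untreated wild type, the 3 copper ATP7B KO, replicate 2 of wild type copper or replicate 1 of ATP7B KO untreated (adjusted p 0.051 to 0.10). TSPAN9 was at 1.61 (adjusted p = 0.038), VGLL4, a competitor of YAP for TEAD, at -2.65 (adjusted p = 0.040), SESN1, a stress-induced sestrin, at -1.66 (adjusted p = 0.045) and YAP1, the Hippo effector, at -2.06 (adjusted p = 0.047). Each of these 4 calls ended with any 1 library left out other than replicate 3 of wild type copper or of ATP7B KO untreated, and also with the replicate block (adjusted p 0.052 to 0.12). In the fit without the 3 libraries that stood apart, the difference was smaller for VGLL4 (-0.78), YAP1 (-0.67, adjusted p = 0.077), SESN1 (-1.03) and TSPAN9 (0.997).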

How the results depend on the processing

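Of the 432 member values under alternatives, 398 stayed within 1 SD between replicates (pooled, log2 CPM) of the reported value, 34 moved further and 0 larger than that SD changed sign, while values near 0 for CCN1 and SNAI1 did. Of 1962 values for named list genes, 1651 kept their call, 311 ended it and 0 reversed. The number of genes past the threshold was 1648 for copper in wild type cells, 3721 for copper in ATP7B KO cells, 3227 for ATP7B KO against wild type averaged over treatments and 545 for the difference of the copper effects. Without the 3 libraries that stood apart it was 4784 for copper in wild type, 5524 for the averaged comparison and 1050 for the difference. The difference gave 1841 calls with DESeq2, 163 with limma voom, 2366 with no filter on low counts and 113 with the replicate block. Leaving out 1 library at a time gave 734 to 3779 calls for copper in wild type, 2372 to 6635 for copper in ATP7B KO, 13 to 5882 for the difference and 2470 to 5715 for the averaged comparison. Every upper end came from the fit without ATP7B KO untreated replicate 3. For the difference, the fit without wild type copper replicate 3 gave 620 calls. Each other fit of the difference that left out 1 library gave 13 to 71. The cause was not tested. Replicate numbers were not taken to pair the samples: deviations were correlated from -0.221 to 0.610 between same-numbered and from -0.642 to 0.407 between different-numbered libraries, and not every same-numbered pair was above 0.1. The block changed the other 3 counts by less than 1.5 times. Counts over all libraries were lowest for F3 (73), CCNG2 (198), CD9 (203) and EDN1 (278), and fits that leave 1 library in a group assume that it varies like the others.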
